A study of Homo sapiens with 6 samples.

Results

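The genes of this report are the output end of the Hippo pathway: the TEAD transcription factors TEAD1, TEAD2, TEAD3 and TEAD4, their coactivators YAP1 and WWTR1, and the target genes CCN1, CCN2, AMOTL2 and LATS2. They are 10 of the 20045 named genes of an Illumina HumanHT-12 array and are read by 14 of its 47321 probes, taken through the platform annotation of the probes. They were chosen by values measured on these same arrays, because the higher TEAD2 intensity with 1 of the SHMT1 shRNAs was already known. Their own values are therefore a description. How many of them the fit over all probes called is set beside the share of all genes called, with nothing read from it. Only the tests of genes outside the 10 are given as results. The pathway lists these genes came from were also chosen with earlier results of these data known, so counts over the lists are not an independent test.

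The arrays were hybridized with RNA from PEO4, a cell line established from high-grade serous carcinoma of the ovary. The cells carried SHMT1 shRNA F12 (2 arrays), SHMT1 shRNA F11 (2 arrays) or a non-silencing (NS) shRNA (2 arrays). All groups were lentivirally transduced cells of the same line kept under puromycin, grown in RPMI medium with serum, so each difference is between shRNAs and not between treated and untreated cells. SHMT1, the cytosolic serine hydroxymethyltransferase and the gene targeted, had an intensity of 434 and 442 with F12, 291 and 342 with F11, and 542 and 544 with NS at its brightest probe. At this probe every F12 and F11 array was below both NS arrays, with a log2 difference from NS of -0.31 with F12 and -0.78 with F11 (standard error 0.0812 each). The F11 difference was called (adjusted p = 0.00535 from limma), though narrowly missed when an NS array was left out (adjusted p = 0.0543 and 0.0585), and the F12 difference was not (adjusted p = 0.213). Between the shRNAs, SHMT1 was higher with F12 than with F11 at this probe by a log2 difference of 0.47 (adjusted p = 0.0197 from limma). Averaged over both shRNAs, its log2 difference from NS was -0.55 (adjusted p = 0.0262 from limma). At the other tested SHMT1 probes, both dimmer, F12 was about level with NS (log2 differences of -0.04 and -0.04), and F11 was at -0.28 and -0.04. Neither of these probes passed between the shRNAs (adjusted p = 0.0703 and 0.999 from limma).

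In the Hippo pathway, the kinases STK3 and STK4 with the scaffold SAV1 activate the kinases LATS1 and LATS2, which act with MOB1 proteins. LATS kinases phosphorylate YAP1 and WWTR1 (also called TAZ) and keep them out of the nucleus. Unphosphorylated YAP1 and WWTR1 enter the nucleus and bind TEAD factors, which recognise the M-CAT element and drive genes of growth, adhesion and matrix. The pathway is known for its control of cell number and contact in epithelia, and YAP1 has been studied as a growth-promoting factor in ovarian cancer. YAP1 and WWTR1 are controlled mostly at the protein level, which an mRNA array does not measure.

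The M-CAT element was searched for as GGAATG, or CATTCC when read on the other strand, in promoter windows of 300 bases, from 250 bases before to 50 bases after each annotated start (RefSeq, GRCh38.p14). Windows were found for 7 of the 10 genes, 10 windows in all, and 4 of these (40%) held the letters, against 4928 of all 35116 windows (14%). CCN2 held 3 matches, and YAP1, LATS2 and 1 of the AMOTL2 starts held 1 each. TEAD2, TEAD3 and WWTR1 held none in these windows. The stretches that carry the matches are printed below 5′ to 3′ on the strand of the gene, with the matched letters in capitals, because they place the element relative to the start of each gene. The first is the 250 bases before the CCN2 start (chr6:131951373-131951622, minus strand). The next are 30 bases around the single match of YAP1 (chr11:102110273-102110302, plus strand), AMOTL2 (chr3:134374499-134374528, minus strand) and LATS2 (chr13:21061560-21061589, minus strand). The last is the 250 bases before a start of TEAD2 (chr19:49362417-49362666, minus strand), shown because TEAD2 had the largest difference of the 10 genes and no match.
CCN2: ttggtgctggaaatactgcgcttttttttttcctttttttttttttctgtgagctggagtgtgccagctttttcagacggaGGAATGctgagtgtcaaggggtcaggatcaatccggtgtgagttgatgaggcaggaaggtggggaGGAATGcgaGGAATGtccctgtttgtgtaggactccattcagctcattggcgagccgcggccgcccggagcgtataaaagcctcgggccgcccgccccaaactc
YAP1: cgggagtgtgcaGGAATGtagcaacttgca
AMOTL2: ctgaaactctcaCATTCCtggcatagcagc
LATS2: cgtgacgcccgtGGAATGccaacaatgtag
TEAD2: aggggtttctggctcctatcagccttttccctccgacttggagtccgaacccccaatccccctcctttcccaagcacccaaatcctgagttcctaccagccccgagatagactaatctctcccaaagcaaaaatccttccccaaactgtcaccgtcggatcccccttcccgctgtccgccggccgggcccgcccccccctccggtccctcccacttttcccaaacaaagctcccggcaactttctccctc

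Counted from the start, with negative positions before it, the CCN2 matches began at -169, -104 and -95, so the last pair lay within a few bases of each other. The YAP1 match began at -162, the AMOTL2 match at -69 on the other strand, and the LATS2 match at 10. Of the 24 other YAP target genes described below, 17 had windows, and 8 of their 21 windows (38.1%) held the letters. A match is a run of letters, and whether a TEAD factor bound there in PEO4 cells was not tested.

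**Figure D1:**
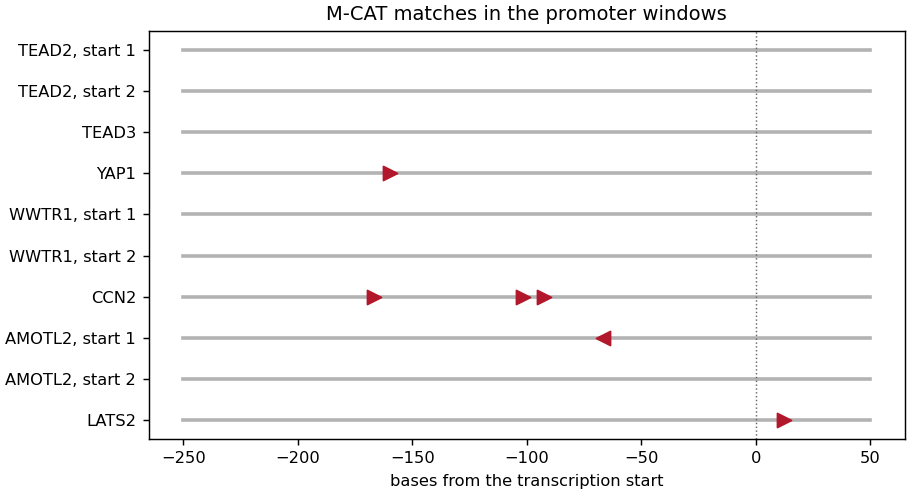
Position of the M-CAT letters in the 10 promoter windows, in bases from the annotated start (dotted line); each grey line is 1 window and each arrowhead 1 match, pointing right on the strand of the gene and left on the other strand. CCN2 holds 3 of the 6 matches, and the windows of TEAD2, TEAD3 and WWTR1 are empty.

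Intensities are the authors' quantile-normalized values on a linear scale, and they include the background of the array, whose mode was 85.5. A probe was tested if 2 or more arrays were above 91.6, the 95th percentile of that background. By this filter 12 of the 14 probes were tested and all 10 genes kept at least 1 probe. TEAD1, TEAD3, WWTR1, AMOTL2 and LATS2 lay so close to the background that a fold change of their mRNA would be understated. Probes differ in brightness for their own reasons, so levels are compared between shRNAs at 1 probe and never between genes. RNA was taken from bulk samples, in which fewer expressing cells and less RNA per cell cannot be told apart.

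TEAD2 stood apart from the other TEAD factors. TEAD2 had an intensity of 222 and 211 with F12, 410 and 352 with F11, and 201 and 187 with NS. Both F11 arrays were the brightest, both F12 arrays followed, and both NS arrays were the dimmest, with no overlap between groups. The group means were 217 ± 7.68 with F12, 381 ± 41.4 with F11 and 194 ± 9.8 with NS (SD, n = 2 each). The log2 difference from NS was 0.16 with F12 and 0.97 with F11 (standard error 0.0853 each), which is 1.96-fold for F11. The step between F12 and NS was smaller than 2 standard errors, whereas F12 lay below F11 with a log2 difference of -0.81 (standard error 0.0853). The difference of F11 from NS was 0.86 without F11 replicate 1 and 1.08 without F11 replicate 2, and that of F12 over F11 was -0.70 and -0.92.

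The remaining TEAD factors had smaller differences. TEAD4, which is known for its part in trophectoderm formation in the mouse embryo, had intensities of 269 and 269 with F12, 271 and 303 with F11, and 253 and 265 with NS at its brightest probe. The F12 and F11 arrays all lay above both NS arrays there, by a log2 difference of 0.06 with F12 and 0.15 with F11 (standard error 0.0697 each). A second TEAD4 probe had 131 and 121 with F12, 116 and 122 with F11, and 124 and 132 with NS, and its log2 difference with F11 was -0.11 (standard error 0.0681), opposite in sign to the brightest probe. The remaining TEAD4 probe did not pass the filter, with 87.4 and 88.7 with F12, 88.3 and 90.1 with F11, and 87.6 and 83.9 with NS.

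TEAD1 exceeded the filter on 4 of the 6 arrays at 1 probe, with 98.1 and 88.6 with F12, 97.2 and 99.6 with F11, and 98.1 and 88.5 with NS. The F12 and NS arrays gave nearly the same pair of values, and the log2 difference of F11 from NS was 0.08 (standard error 0.0767). The other TEAD1 probe lay between 80.3 and 83.1 on all 6 arrays and was not tested. TEAD3 had 107 and 122 with F12, 106 and 111 with F11, and 112 and 119 with NS. Both F11 arrays lay just below both NS arrays, and the F12 arrays overlapped both groups. Its log2 differences from NS were -0.01 with F12 and -0.09 with F11 (standard error 0.0772 each).

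Of the coactivators, YAP1 was measured well above background but with a wide spread between arrays of 1 group. YAP1 had 468 and 596 with F12, 466 and 387 with F11, and 572 and 435 with NS. Both F12 arrays lay above both F11 arrays by a narrow margin, the NS arrays overlapped both groups, and the residual SD of 0.241 on the log2 scale was larger than that of TEAD2 (0.104). The log2 difference from NS was 0.08 with F12 and -0.23 with F11 (standard error 0.164 each). WWTR1, the other coactivator, stayed between 92.1 and 96.4 on all 6 arrays, near the background, and its log2 differences from NS were -0.02 with F12 and -0.01 with F11 (standard error 0.0571 each).

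Among the target genes, CCN1 and CCN2 were bright and were lowest with F11. CCN1, also called CYR61, encodes a secreted matrix protein that binds integrins. CCN1 had 1014 and 1086 with F12, 845 and 863 with F11, and 1120 and 1300 with NS. The groups did not overlap, with F11 lowest, F12 between and NS highest. The log2 difference from NS was -0.20 with F12 and -0.50 with F11 (standard error 0.0818 each), and F12 lay 0.30 above F11. The difference with F11 ran between -0.61 without NS replicate 1 and -0.39 without NS replicate 2, the arrays that moved it most.

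CCN2, also called CTGF, encodes the connective tissue growth factor and is a commonly used readout of YAP activity. CCN2 had 1748 and 1698 with F12, 1323 and 1149 with F11, and 1769 and 1443 with NS at its brightest probe. Both F11 arrays were below all other arrays, whereas the F12 arrays fell between the NS arrays. A second CCN2 probe had 504 and 488 with F12, 384 and 261 with F11, and 559 and 384 with NS, in the same order of group means. There the higher F11 array and the lower NS array had nearly the same intensity. The log2 difference between F12 and F11 was 0.48 at the brightest probe (standard error 0.108) and 0.65 at the second (standard error 0.211), and those of F11 from NS were -0.37 and -0.55.

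AMOTL2 and LATS2 are targets that also restrain YAP1, AMOTL2 as an angiomotin that binds it and LATS2 as a kinase of the Hippo pathway. AMOTL2 had 92.7 and 107 with F12, 103 and 104 with F11, and 108 and 101 with NS, and its groups overlapped. LATS2 had 110 and 102 with F12, 93.8 and 96.1 with F11, and 94.5 and 104 with NS. Both LATS2 arrays with F12 lay above both with F11, by a log2 difference of 0.16 (standard error 0.0694), while the NS arrays overlapped both groups.

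**Figure D2:**
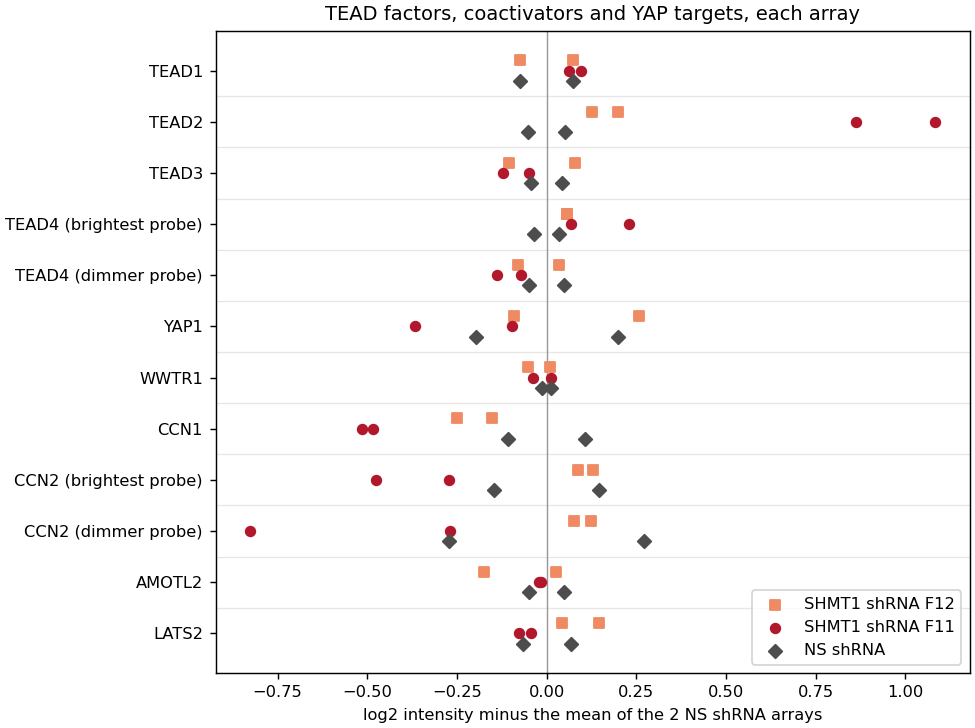
Each array of the 12 tested probes, as log2 intensity minus the mean of the 2 NS shRNA arrays; squares are F12, circles F11 and diamonds NS. TEAD2 has both F11 circles at the right, and CCN1 and CCN2 have them at the left.

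The comparisons of F12 and of F11 with NS used the same 2 NS arrays. Those of F11 with NS and of F12 with F11 used the same 2 F11 arrays. Values of these comparisons are therefore set side by side and not counted as separate evidence. The median log2 difference of the 10 genes was 0.03 with F12 and -0.04 with F11, and the medians of all 12863 tested genes were 0.0019 and 0.0051. Between the shRNAs (F12 over F11) the median of the 10 genes was 0.03, with 5 positive and 5 negative. F12 arrays did not overlap F11 arrays and lay above them for 4 of the 10 genes, against 24.5% of all tested genes, and F11 arrays lay below both NS arrays for 3 of the 10, against 20.3% of all genes.

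A gene was called where a probe passed an adjusted p of 0.05 (limma, Benjamini-Hochberg over all 23004 tested probes). With F11 against NS, 1 of the 10 genes was called higher (TEAD2), against 1.91% of all tested genes, and 1 lower (CCN1), against 1.88%. Between F12 and F11, 1 was called higher (CCN2), against 3.83% of all genes, and 1 lower (TEAD2), against 4.35%. With F12 against NS, 0 of the 10 were called higher, against 0.35%, and 0 lower, against 0.56%, and at an unadjusted p under 0.05 limma gave 0 higher and 1 lower. Averaged over both SHMT1 shRNAs, 1 was called higher (TEAD2), against 0.225%, and 0 lower, against 0.451%, with 1 lower at an unadjusted p under 0.05. The TEAD2 call of the averaged comparison was absent when any of the NS or F12 arrays was left out. With F11, 1 call was left without NS replicate 2 or without an F12 array. Between the shRNAs 1 was left without F11 replicate 2 or F12 replicate 1 and 0 without F12 replicate 2. The shares of all genes are of adjusted calls, and no share was counted for an unadjusted p under 0.05. Since the genes were chosen with these values known, nothing is read from the counts.

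**Figure D3:**
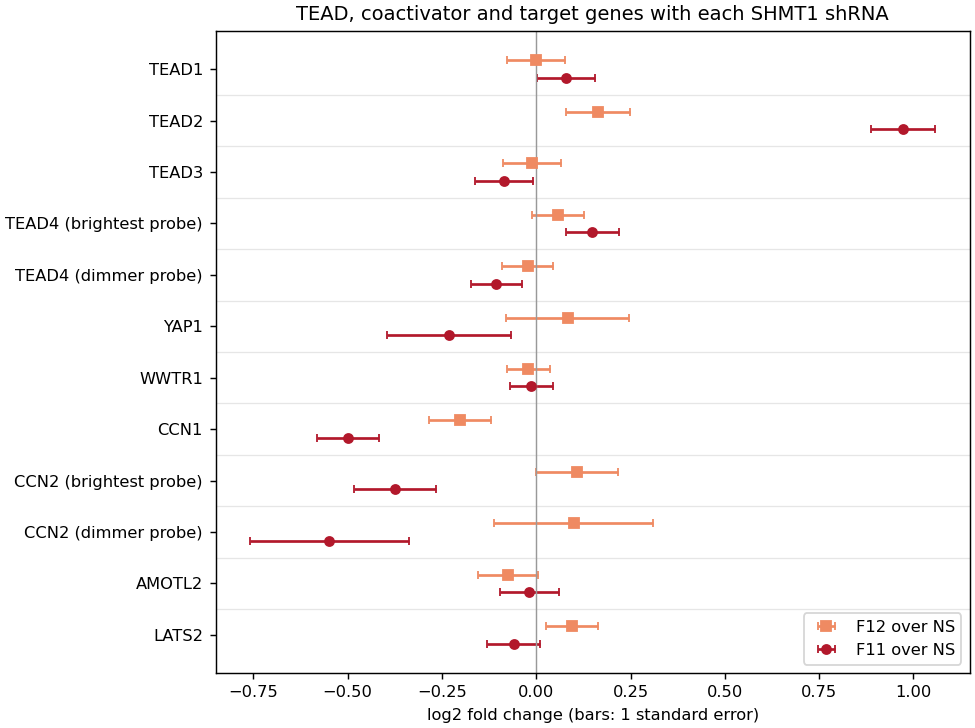
Log2 fold change of F12 (squares) and F11 (circles) over NS at each of the 12 tested probes, with bars of 1 standard error. TEAD2 with F11 is at 0.97, CCN1 with F11 at -0.50, and the F12 values lie between -0.20 and 0.16.

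Other genes of the pathway were taken from 3 lists of 46 genes, of which 44 were on the array and 38 were tested. The lists were chosen with earlier results of these data known, which limits what the counts below can show. Between the shRNAs, 12 of the 38 were higher with F12 than with F11 and 2 were lower, at background shares of 3.83% and 4.35% of all genes. With F11 against NS, 6 of the 38 were lower and 0 higher, against 1.88% and 1.91% of all genes (limma; before adjustment, p was under 0.05 for 1 higher and 18 lower genes). With F12 against NS, only NT5E was lower and 0 were higher, against 0.56% and 0.35% of all genes (before adjustment, 10 higher and 3 lower genes), and NT5E was also the only call in the averaged comparison. The shares of all genes are of adjusted calls. The share of all genes with an unadjusted p under 0.05 was not counted, so nothing is read from the counts before adjustment. The number called between the shRNAs, 14 in both directions, was 4 without either F12 array, and the number called with F11 was 0 without either NS array and 2 without either F12 array. At the brightest probe, 31 of the 38 had a positive difference of F12 over F11, against 49.2% of all tested genes. In 27 of the 38 both F12 arrays lay above both F11 arrays, against 24.5% of all genes, and in 24 both F11 arrays lay below both NS arrays, against 20.3%. Both counts rest on the same 2 F11 arrays, so they are not separate evidence.

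Upstream, 14 of 16 kinases and adaptors were tested. FRMD6, a FERM-domain adaptor related to the Drosophila protein Expanded, had 333 and 346 with F12, 184 and 201 with F11, and 267 and 298 with NS. Its groups did not overlap, with F12 highest and F11 lowest. FRMD6 was higher with F12 than with F11 by a log2 difference of 0.82 (standard error 0.077, adjusted p = 0.00187 from limma), a call that held in all 12 alternatives (adjusted p from 0.000136 to 0.0386). A second FRMD6 probe had a difference of 0.38 (adjusted p = 0.131). With F11 it fell by 0.55 against NS on the log2 scale (adjusted p = 0.0143), which 5 of 12 alternatives lost, each single NS or F12 array among them (adjusted p from 0.00529 to 0.108).

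WWC1, also called KIBRA, which binds LATS kinases, had 800 and 866 with F12, 528 and 576 with F11, and 662 and 731 with NS. The difference of F12 over F11 was 0.59 (standard error 0.0786, adjusted p = 0.00694) and was lost without either F12 array (adjusted p over the alternatives from 0.00312 to 0.0861). The scaffold SAV1 had 499 and 598 with F12, 360 and 247 with F11, and 447 and 385 with NS, a difference of 0.87 with a wide error (standard error 0.176, adjusted p = 0.0342). The phosphatase PTPN14, which restrains YAP1, had 196 and 201 with F12, 159 and 163 with F11, and 189 and 186 with NS, a difference of 0.30 (standard error 0.0548, adjusted p = 0.0238). STK4 went the other way, with 1229 and 1187 with F12, 1445 and 1448 with F11, and 1358 and 1323 with NS, a difference of -0.26 (standard error 0.0554, adjusted p = 0.0404). The calls of SAV1 and PTPN14 were lost when any of the NS or F12 arrays was left out, and that of PTPN14 also without F11 replicate 1, with adjusted p over the alternatives of up to 0.239 for SAV1 and 0.184 for PTPN14. That of STK4 was lost in 11 of 12 alternatives, all but the fit with no filter, and so without any 1 of the 6 arrays (adjusted p from 0.0251 to 0.258). Leaving out an NS array does not change a difference of F12 over F11, only the estimate of its spread. The remaining 9 tested kinases and adaptors, STK3 and MOB1A among them, passed in no direction between the shRNAs, and no probe of LATS1 or NF2 passed the filter.

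Of the angiomotins and TEAD cofactors other than YAP1 and WWTR1, 4 of 6 were tested. VGLL1, a cofactor that binds TEAD factors at the surface that YAP1 uses, had 184 and 167 with F12, 111 and 114 with F11, and 165 and 161 with NS. Both F11 arrays lay far below the other 4. The difference of F12 over F11 was 0.64 (standard error 0.0659, adjusted p = 0.00254) and held in all 12 alternatives (adjusted p up to 0.0373). Against NS, VGLL1 fell by 0.54 with F11 on the log2 scale (adjusted p = 0.00898), and leaving out either NS array ended this call (adjusted p over the alternatives from 0.00104 to 0.0863). AMOT, the founding angiomotin, had 235 and 240 with F12, 188 and 194 with F11, and 224 and 248 with NS. Its difference of 0.31 (standard error 0.0674, adjusted p = 0.0414) was lost without any 1 of the 4 SHMT1 shRNA arrays and had an adjusted p of up to 0.246 over the alternatives. VGLL4, which represses TEAD targets, had a difference of 0.27 that missed the threshold (adjusted p = 0.0587).

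Of 24 other YAP target genes, 22 were on the array and 20 were tested. Between the shRNAs, 6 were higher with F12 than with F11 and 1 was lower, with a median log2 difference of 0.24, against -0.0022 over all tested genes. The shares of all genes called there were 3.83% higher and 4.35% lower. With F11 against NS, 4 were lower and 0 higher, against 1.88% and 1.91% of all genes (limma; before adjustment, p was under 0.05 for 1 higher and 11 lower genes). Of the 20, 3 were positive, against 51.9% of all genes, and their median was -0.21, against 0.0051. With F12 against NS the median was 0.03, against 0.0019. Nothing is read from the counts before adjustment here either, since the share of all genes was not counted for them.

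IGFBP3, which binds insulin-like growth factors, had 782 and 775 with F12, 551 and 516 with F11, and 687 and 655 with NS at its brightest probe. A second probe had 425 and 408 with F12, 261 and 269 with F11, and 381 and 362 with NS. At both probes the groups did not overlap, with F12 highest and F11 lowest. The difference of F12 over F11 was 0.55 (standard error 0.0612, adjusted p = 0.0037) and 0.65 (standard error 0.0597, adjusted p = 0.00175), and the second held in all 12 alternatives (adjusted p up to 0.0344). Against NS the second probe fell by 0.49 with F11 (adjusted p = 0.00907), a call lost without either NS array (adjusted p over the alternatives from 0.00534 to 0.0871). FSTL1, a secreted follistatin-like glycoprotein, had 567 and 582 with F12, 388 and 397 with F11, and 475 and 501 with NS. Its difference was 0.55 (standard error 0.0579, adjusted p = 0.0028), lost by a narrow margin without F12 replicate 2 (adjusted p over the alternatives from 0.00142 to 0.0504). Its fall of 0.31 against NS with F11 (adjusted p = 0.041) was lost in 11 of 12 alternatives, the leaving out of each single array among them (adjusted p from 0.025 to 0.22).

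F3, which encodes tissue factor of blood coagulation, had 231 and 198 with F12, 139 and 154 with F11, and 204 and 211 with NS at its brightest probe. Both F11 arrays lay below the other 4. The difference of F12 over F11 was 0.55 (standard error 0.0884, adjusted p = 0.0162), lost without F12 replicate 1 (adjusted p over the alternatives from 0.00289 to 0.115), and a second F3 probe had 0.31 (adjusted p = 0.334). Its fall of 0.51 with F11 against NS (adjusted p = 0.0337) was lost in 7 of 12 alternatives, with every array but F11 replicate 2 among those whose removal ended it (adjusted p from 0.00833 to 0.189). GADD45A, a stress-response gene, had 473 and 493 with F12, 357 and 368 with F11, and 382 and 410 with NS, a difference of 0.41 (standard error 0.0626, adjusted p = 0.0124). ARHGEF17 had 246 and 231 with F12, 182 and 185 with F11, and 212 and 203 with NS, a difference of 0.38 (standard error 0.0605, adjusted p = 0.0153). Both calls were lost without either F12 array, with an adjusted p of up to 0.126 for GADD45A and 0.14 for ARHGEF17.

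NT5E, the ecto-enzyme CD73, did not share this pattern. NT5E had 163 and 175 with F12, 184 and 171 with F11, and 282 and 247 with NS. Both shRNAs lay below both NS arrays and overlapped each other. On the log2 scale NT5E fell by 0.64 with F12 (adjusted p = 0.0242) and by 0.58 with F11 (adjusted p = 0.0159; standard error 0.082 each), and F12 over F11 was at -0.07 (adjusted p = 0.742). Each fall was lost when any of the NS or F12 arrays was left out, with adjusted p over the alternatives from 0.00315 to 0.306 for F12 and from 0.0031 to 0.0981 for F11. Among the 13 target genes that passed in no direction between the shRNAs are ANKRD1, with 129 and 137 with F12, 128 and 120 with F11, and 138 and 128 with NS, and AXL, a receptor tyrosine kinase, with a difference of 0.14 (adjusted p = 0.447).

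**Figure D4:**
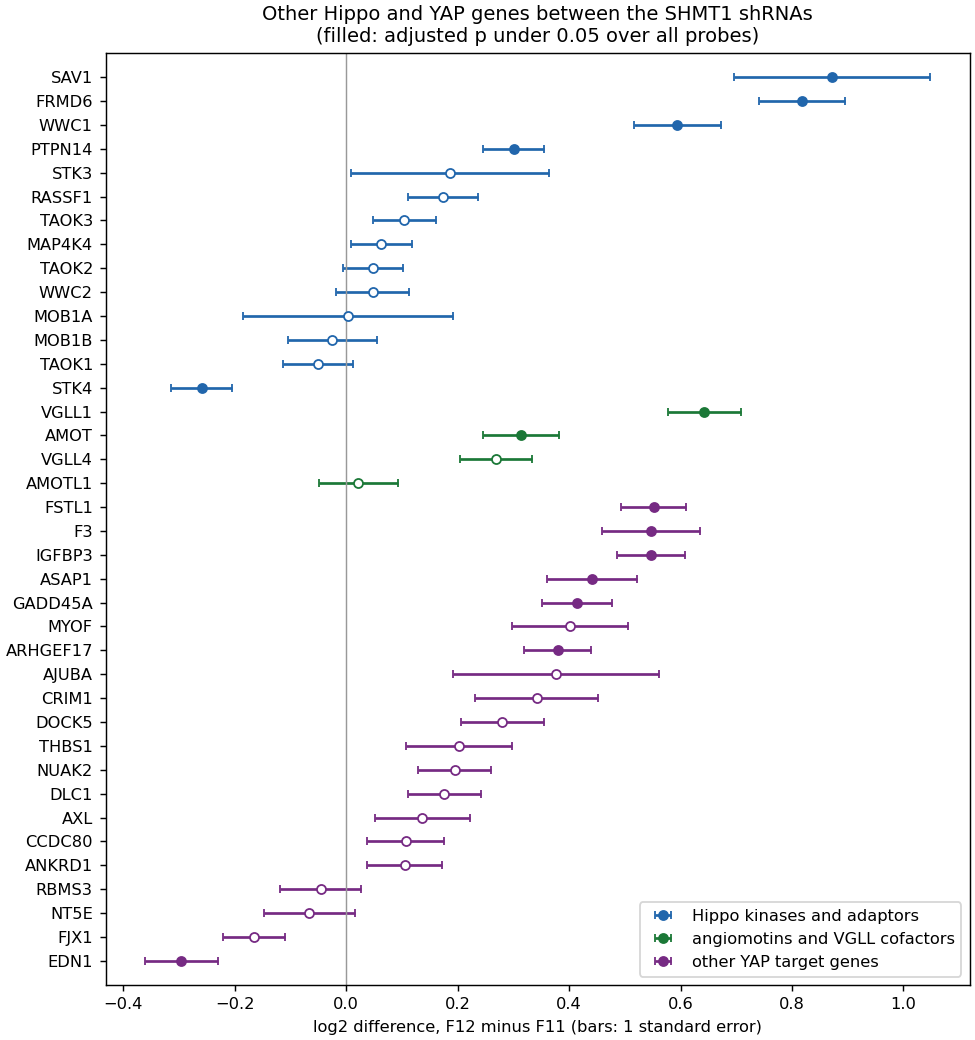
Log2 difference of F12 minus F11 for the 38 tested genes of the 3 lists at the brightest probe, with bars of 1 standard error; filled points had an adjusted p under 0.05. FRMD6 (0.82) and SAV1 (0.87) are farthest right, and STK4 (-0.26) and EDN1 (-0.30) are the filled points left of 0.

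**Figure D5:**
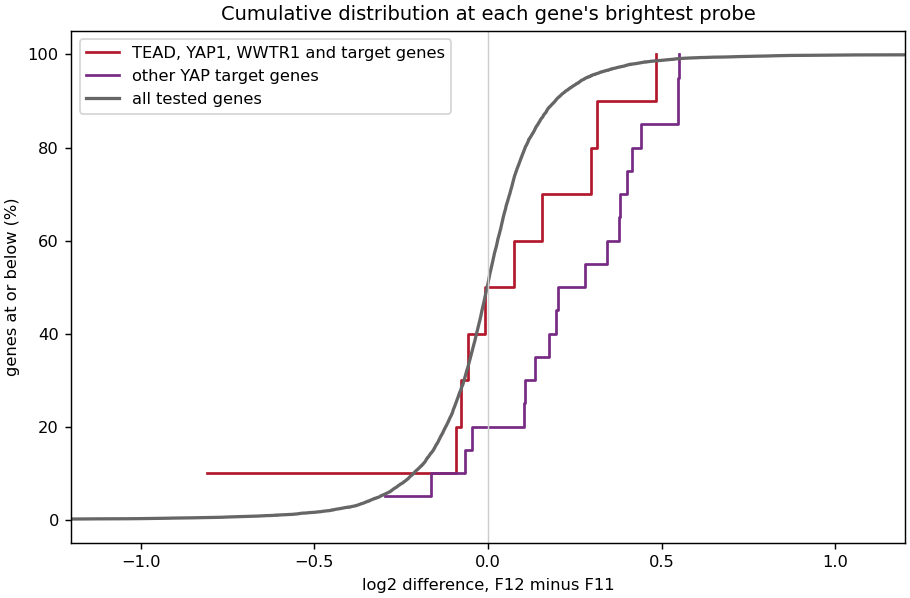
Share of genes (%) at or below each log2 difference of F12 minus F11, for the 10 genes of this report, the 20 tested other YAP target genes and all 12863 tested genes. The curve of the other YAP targets crosses 50% near 0.24, and those of the 10 genes and of all genes cross it near 0.

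The genes whose pattern was most like that of TEAD2 were sought among 1112 genes that varied over the 6 arrays (SD of at least 0.2 on the log2 scale). The likeness was Pearson's r of log2 intensity over the 6 arrays, which share cells, shRNAs and normalization, so r is a description. The highest were the homeobox gene MSX1 (r = 0.997), the chemokine receptor ACKR3 (r = 0.993), PIR (r = 0.987), the transporter SLC22A17 (r = 0.986) and the cytochrome P450 gene CYP1B1 (r = 0.985). CYP1B1 had 758 and 847 with F12, 1708 and 1343 with F11, and 752 and 728 with NS, with both F11 arrays far above the other 4. MSX1 had 270 and 272 with F12, 434 and 388 with F11, and 263 and 239 with NS. ACKR3 had 83.4 and 85.1 with F12, 118 and 109 with F11, and 83.3 and 80.6 with NS. It passed the filter through its F11 arrays alone, with the F12 and NS arrays at background, so its r rests on the F11 arrays.

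Markers of the cell type were checked beside these results. All 7 markers of serous ovarian carcinoma were above the filter, with PAX8 between 953 and 1100 and WT1 between 965 and 1257 on the 6 arrays. They were not all level between shRNAs. The keratin gene KRT7 had 897 and 849 with F12, 682 and 695 with F11, and 1071 and 1003 with NS, a log2 difference from NS of -0.25 with F12 and -0.59 with F11 (standard error 0.0623 each). The mucin gene MUC16 had 1018 and 964 with F12, 1541 and 1588 with F11, and 1389 and 1516 with NS, a log2 difference of -0.55 with F12 from NS and -0.66 of F12 over F11 (standard error 0.0667 each). No test of these markers is given. Of the endothelial markers 0 of 5 passed the filter, and of the fibroblast markers 4 of 6 passed, at 115 or less. Of the leukocyte markers on the array 2 of 4 passed, CD14 and CD68, while no probe of PTPRC or CD3E did. The summed intensity of the leukocyte markers was 600 to 625 with F12, 712 to 816 with F11 and 678 to 787 with NS, lowest with F12. In this sum PTPRC and CD3E add only background, so its differences are those of CD14 and CD68. The part of these 2 genes in the differences between the shRNAs was not tested.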

How the data were processed

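Total RNA of 6 PEO4 samples, 2 per shRNA, was labelled and hybridized to Illumina HumanHT-12 V4 arrays. The authors processed the scans in GenomeStudio and quantile-normalized them with lumi (named without a version in the submitters' processing notes), and the deposited intensity of each probe is on a linear scale. A background subtraction is not stated in the sources used here. A non-normalized table was not used, because its 12 signal columns could not be matched to the sample labels.

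Intensities were log2-transformed without further normalization. Arrays were grouped by the labels. These leave unsaid if the 2 arrays of a group came from separate cultures, so the spread that p-values rest on may be technical, and the number of arrays limits the precision. The medians were 89.9 on every array, intensities ran from 70.9 to 15895, and replicate arrays correlated with r from 0.995 to 0.997 over probes. Background was estimated from the mode over all probes, 85.5, and its 95th percentile, 91.6. Of 47321 probes, 30112 had 1 gene symbol, 8 several and 17201 none, and 23004 were tested, which held 12863 genes. limma 3.58.1 (R 4.3.3) fitted 3 groups with 3 residual and 4.27 prior degrees of freedom, and two-sided p-values were adjusted over the tested probes by Benjamini-Hochberg and called under 0.05. The brightest tested probe stood for a gene, and a gene was counted where any probe passed. For called pathway genes, the alternatives and the flagged differences used the probe with the lowest adjusted p. The fit was tested on simulated data.

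The 10 genes and the pathway lists were chosen with earlier results of these data known. Named are all 10 genes, SHMT1, up to 6 called genes of each list by the lowest adjusted p, and the 5 genes most like TEAD2. ASAP1 and EDN1 were named after their values were seen, as were the genes outside the rule that did not pass. Markers of serous carcinoma, fibroblasts, leukocytes and endothelium were checked. Alternatives were no filter, a stricter filter (99th percentile on all 6 arrays), the replicate number as a block, normexp correction (offset 16), an intensity trend with robust estimation, only the compared groups, the brightest probe alone, the mean of all tested probes and each array left out. Leaving out an array of the group outside a comparison changes only the estimate of spread and its degrees of freedom, not the difference. Promoter windows came from RefSeq (GRCh38.p14).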

Additional observations from a re-analysis of the deposited data

Results flagged for a closer look

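The difference between the shRNAs was itself tested for the pathway genes outside the 10, and 14 genes were singled out by it (limma, Benjamini-Hochberg over all tested probes, 2 arrays a group). Higher with F12 than with F11 were SAV1 (log2 difference 0.87), FRMD6 (0.82), WWC1 (0.59) and PTPN14 (0.30) among the kinases and adaptors, and VGLL1 (0.64) and AMOT (0.31) among the cofactors. Among the target genes they were IGFBP3 (0.65 at its second probe, 0.55 at its brightest), FSTL1 (0.55), F3 (0.55), GADD45A (0.41), ARHGEF17 (0.38) and ASAP1 (0.44). ASAP1, an Arf GTPase-activating protein, had 3035 and 2816 with F12, 2108 and 2199 with F11, and 2367 and 2718 with NS at its brightest probe (adjusted p = 0.0247). Its other tested probes did not pass, with differences of 0.23 (adjusted p = 0.0886) and 0.33 (adjusted p = 0.154). The ASAP1 call was lost in 4 of 12 alternatives, normexp correction among them (adjusted p = 0.0627). Lower with F12 than with F11 were the kinase STK4 (-0.26) and EDN1 (-0.30), which encodes endothelin. EDN1 had 133 and 124 with F12, 160 and 155 with F11, and 141 and 150 with NS (adjusted p = 0.0464), a call lost in 9 of 12 alternatives, each single array left out among them (adjusted p up to 0.288). FRMD6, VGLL1 and IGFBP3 were the genes of these 14 whose call held in all 12 alternatives.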

How the results depend on the processing

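No called difference changed sign under the alternatives run. Changes of sign in differences that were not called were not counted, and differences near 0 can change sign when an array is left out. Of the log2 differences of the 10 genes, 457 values moved by less than the residual SD and 37 by more, and of the fold changes of the called pathway genes, 173 kept their call and 90 lost it. Of the 10 genes, 2 were called with F11 (1 after normexp and 1 with only the compared groups) and 2 between F12 and F11 (1 with no filter and 1 after normexp). Of the pathway genes, 6 were called with F11 (2 with only the compared groups) and 1 with F12 (0 with the replicate block). Leaving out 1 array at a time, the counts for the 10 genes ran from 0 to 1 in the averaged comparison, 1 to 2 with F11 and 0 to 2 between the shRNAs. Those for the pathway genes ran from 0 to 2 averaged, 0 to 7 with F11, 0 to 1 with F12 and 4 to 13 between the shRNAs. The replicate numbers were not used as pairs: deviations from the group means correlated over probes with r = 0.455 between F11 and NS, -0.291 between F12 and NS and -0.31 between F12 and F11. Intensities near the background limit what can be seen for TEAD1, TEAD3, WWTR1, AMOTL2 and LATS2.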
